A study of Saccharomyces cerevisiae with 12 samples.

Results

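The 56 genes described here are the yeast genes whose standard name is UTP, NOP, NOC or RRP with a number, out of 6692 gene entries in a count table from budding yeast strains that differ in the gene TAF14. They comprise 18 UTP, 17 NOP, 3 NOC and 18 RRP genes. The rule uses only the name in the R64 annotation, but it was set with earlier results of these data known. All 56 passed the filter on low counts and were tested. Total RNA depleted of ribosomal RNA was sequenced from 4 groups of 3 libraries, all in the laboratory strain BY4741 and all carrying a plasmid derived from pRS313-HA3-SSN6. The W81A group is a taf14 deletant with pRS313-taf14W81A-HA3-SSN6, which encodes Taf14 with tryptophan replaced by alanine in the pocket of its YEATS domain that binds acetylated histone H3. The deletion group is the taf14 deletant with the plasmid without a TAF14 insert. The TAF14 group is the taf14 deletant with pRS313-TAF14-HA3-SSN6, the plasmid with the full-length gene. The WT group is BY4741 with its own chromosomal TAF14 and the plasmid without an insert. The labels do not say whether the libraries of a group came from separate cultures, so p-values measure the spread between these libraries, which may be technical.

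Ribosomes are assembled in the nucleolus, where a long precursor RNA is transcribed, cut, chemically modified and folded together with ribosomal proteins. Small nucleolar ribonucleoproteins (snoRNPs) guide methylation and pseudouridylation of the precursor, and the U3 snoRNP with the UTP complexes (UtpA, UtpB and UtpC) forms the early small-subunit particle. Large-subunit factors, among them NOP, NOC and RRP proteins, fold and export the other particle, and the exosome trims and degrades RNA from its end. In budding yeast these genes are known to be transcribed in concert and to follow growth rate, and many of their promoters carry the PAC and RRPE elements.

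Taf14 is a small protein shared by the general factors TFIID and TFIIF and by several chromatin complexes. It binds acetylated histone H3 through its YEATS domain. The comparisons ask how much of the expression of a gene depends on the presence of Taf14 (deletion against TAF14 and against WT), how much on the acetyl-lysine pocket (W81A against TAF14 and against WT), how the pocket mutant compares with total loss (W81A against deletion), and whether plasmid-borne TAF14 restores wild type levels (TAF14 against WT).

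Many members share sequence features upstream of their coding regions. These are the PAC and RRPE elements already known from promoters of such genes, so high shares are not a new result. The PAC letters GATGAG and the RRPE letters AAAAATTT were searched on both strands between 250 bases before and 50 bases after the coding start in the R64 genome. PAC occurred in 47 of 56 member promoters (83.9%), against 20.4% of 5985 promoters of all genes searched in the same window. RRPE occurred in 41 (73.2%), against 14.2%. Both motifs were present in 35 members (62.5%), against 5.65% of all promoters, and 3 members (RRP45, RRP46 and UTP22) held neither. A PAC match and an RRPE match cannot share a base, whereas matches of 1 motif can overlap each other. A match is a description of the letters in the window and not evidence of a bound factor.

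The exosome promoters held the motifs in fewer of their number, a difference that was not tested. PAC was present in 3 of 7 exosome promoters and RRPE in 3 of 7, with both in 1, against 44, 38 and 34 of the other 49 members. By name family, both motifs were present in 13 of 18 UTP, 13 of 17 NOP, 2 of 3 NOC and 7 of 18 RRP promoters. The 68 PAC matches that lay wholly upstream began a median of 119 bases before the coding start, with a range of 38 to 229 bases. The 56 upstream RRPE matches began a median of 134 bases before it, with a range of 34 to 245 bases.

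**Figure D1:**
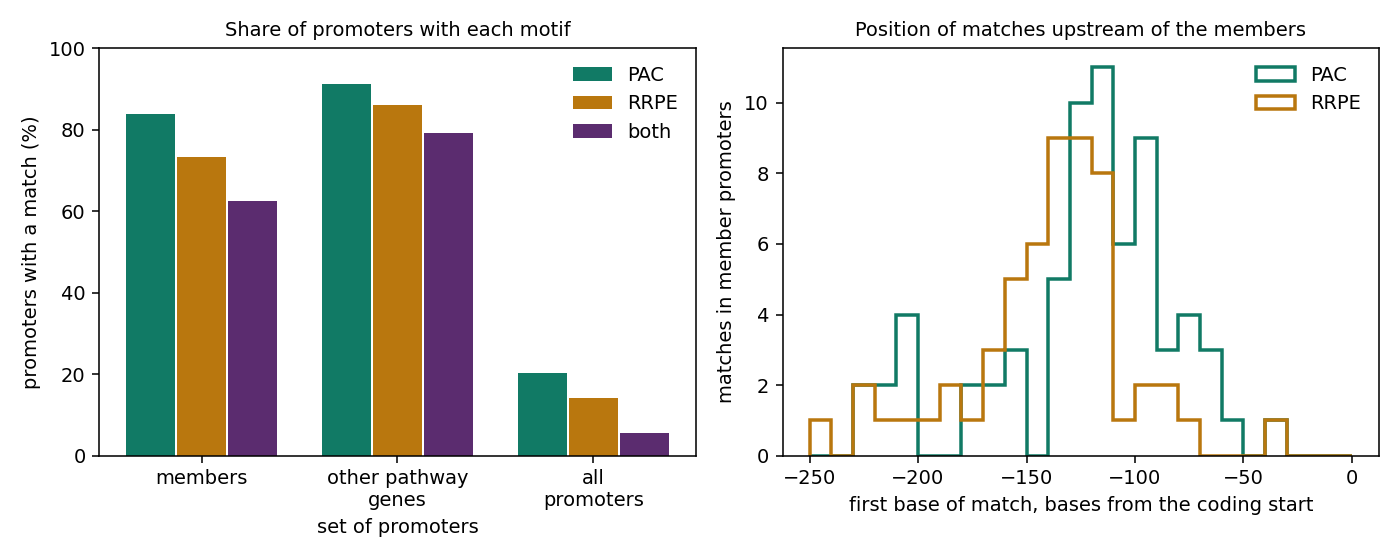
The left panel gives the percentage of promoters with a PAC match, an RRPE match or both, for the 56 members, 101 other genes of the pathway and all 5985 promoters. The right panel is a histogram of the first base of each match in bases from the coding start of the members. The quartiles of the PAC matches were 95 and 134 bases upstream, and those of the RRPE matches 119.5 and 154.

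The 8 promoters below belong to members whose values are given in detail further on. Each run is 120 bases, 5′ to 3′ on the gene's own strand, from 180 to 61 bases upstream of the coding start, read from the RefSeq R64 genome, and capitals mark PAC and RRPE matches on either strand. The windows are RRP5 at chrXIII:731184-731303 (minus strand), NOP13 at chrXIV:308673-308792 (minus), RRP8 at chrIV:611893-612012 (plus), NOP58 at chrXV:898421-898540 (minus), UTP21 at chrXII:937294-937413 (minus), NOP8 at chrXV:52918-53037 (plus), NOP6 at chrIV:78027-78146 (minus) and NOC3 at chrXII:156395-156514 (minus). The first 6 hold both motifs and the last 2 hold PAC alone.
RRP5: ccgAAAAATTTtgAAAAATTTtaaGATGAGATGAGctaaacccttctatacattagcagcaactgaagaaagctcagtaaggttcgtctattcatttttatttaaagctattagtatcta
NOP13: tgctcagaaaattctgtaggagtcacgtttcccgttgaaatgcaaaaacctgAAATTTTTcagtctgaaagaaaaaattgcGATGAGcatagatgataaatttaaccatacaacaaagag
RRP8: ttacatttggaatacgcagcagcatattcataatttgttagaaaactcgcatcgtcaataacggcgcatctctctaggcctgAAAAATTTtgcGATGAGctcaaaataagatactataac
NOP58: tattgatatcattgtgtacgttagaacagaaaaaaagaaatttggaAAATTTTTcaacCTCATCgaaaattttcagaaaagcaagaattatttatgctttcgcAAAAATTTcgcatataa
UTP21: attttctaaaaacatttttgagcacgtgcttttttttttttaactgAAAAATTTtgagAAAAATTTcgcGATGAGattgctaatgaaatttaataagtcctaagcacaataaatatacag
NOP8: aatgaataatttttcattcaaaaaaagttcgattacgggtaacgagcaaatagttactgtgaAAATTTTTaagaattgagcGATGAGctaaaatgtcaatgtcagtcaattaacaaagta
NOP6: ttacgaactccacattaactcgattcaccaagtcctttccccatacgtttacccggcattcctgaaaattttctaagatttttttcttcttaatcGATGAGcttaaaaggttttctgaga
NOC3: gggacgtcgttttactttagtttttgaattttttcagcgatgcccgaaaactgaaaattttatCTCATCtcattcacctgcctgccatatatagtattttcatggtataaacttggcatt

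RRP5 carried 2 overlapping PAC matches downstream of 2 RRPE matches, and UTP21 carried the same order with 2 RRPE matches and 1 PAC match. NOP13, RRP8 and NOP8 each had 1 RRPE match followed by 1 PAC match nearer the gene. In NOP58 the PAC letters read on the other strand and lay between 2 RRPE matches.

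Every member is a single coding exon, none overlaps another annotated gene, and none has a near copy elsewhere in the genome (at least 95% identity over at least 30% of its length). For 15 members an entry with the neighbouring systematic number could not be placed on the annotation, so an overlap with it could not be checked. For NOP58 that entry held 4578 counts against 60295 counts of NOP58 over the 12 libraries, and for NOP9 it held 1397 against 24206. The strand setting of the counting is not given in the sources used here, so reads from such an entry and from the gene cannot be told apart.

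Libraries held 9.01 to 11.7 M counts, and a member had between 28 (RRP17) and 20079 (RRP5) counts in a library, with a median of 1918. Levels are counts per 1e6 counts of the scaled library size (CPM), and counting error was largest for RRP17. TAF14 itself was at 223.0, 202.7 and 191.9 CPM in the W81A libraries, 0.437, 0.199 and 0.484 CPM in the deletion libraries, 355.1, 142.7 and 301.9 CPM in the TAF14 libraries, and 132.3, 128.7 and 148.2 CPM in the WT libraries. It was thus near 0 in the libraries labelled deletion and in no others, while counts cannot tell the W81A allele from the wild type one. TAF14 was called higher in TAF14 against WT by edgeR's test (log2 change 0.96 ± 0.23 SE, adjusted p = 0.0137). TAF14 replicate 2 lay below the rest of its group and within the range of the WT libraries. Genes on chromosome XII stood apart. Relative to the other chromosomes and to the WT mean, their median was shifted by 0.48 to 0.54 on the log2 scale in the 3 deletion libraries and by 0.57 in TAF14 replicate 2, against -0.01 to 0.03 in the other 8 libraries. All 3 deletion libraries carry this shift, so in any comparison with that strain it cannot be told apart from the loss of TAF14. NOC3, NOP56, UTP13 and UTP21 lie on that chromosome. For some comparisons, counts of members called are given also without TAF14 replicate 2 or without the chromosome, which leaves 52 members. Shares of all tested genes are given for the full fit only, so changes in those counts are not read as particular to the members.

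Together the 56 members were lowest in the deletion strain and highest in the TAF14 strain. Their summed level was 17730.0, 17281.6 and 17817.2 CPM in W81A libraries, 15530.3, 14660.7 and 15319.9 CPM in deletion libraries, 18916.1, 19114.9 and 19198.4 CPM in TAF14 libraries, and 17391.0, 16857.6 and 17705.4 CPM in WT libraries. The deletion libraries lay below all others and the TAF14 libraries above all others, while the W81A and WT libraries overlapped. The deletion strain had the lowest of the 4 group means in 42 members (75%), against 35.1% of all 5918 tested genes. The TAF14 strain had the highest mean in 45 members (80.4%), against 22.9% of all tested genes. Both counts were the same without TAF14 replicate 2, but the members highest in TAF14 were then not all the same ones. In bulk RNA fewer cells of a type and less RNA per cell cannot be told apart.

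**Figure D2:**
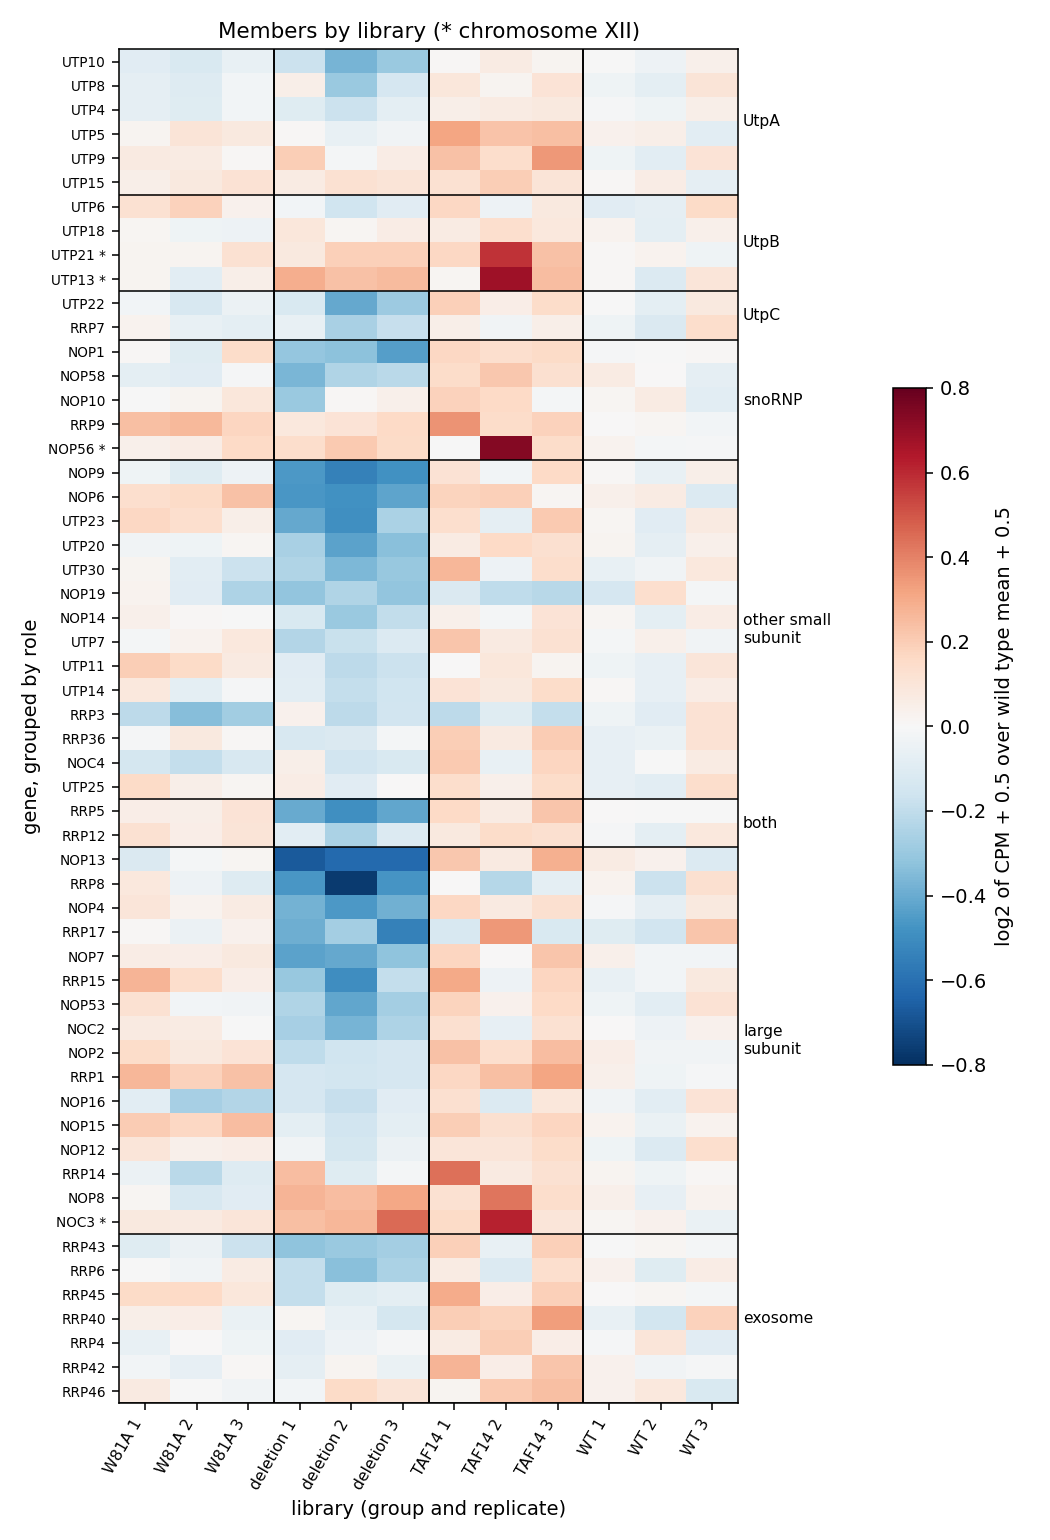
Each row is a member, grouped by role, and each column a library, in the order W81A, deletion, TAF14 and WT. Colour is the log2 ratio of CPM to the mean of the WT libraries, both with 0.5 added. Most rows are blue in the 3 deletion columns, whereas the starred chromosome XII genes are red in TAF14 replicate 2.

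The differences were small and the replicates close. The ratio of the highest to the lowest group mean had a median of 1.24 over the members and ran between 1.08 for UTP18 and 1.78 for NOP13. The median coefficient of variation between replicates of a member was 3.32% in W81A, 4.31% in deletion, 5.8% in TAF14 and 5.01% in WT. Over all tested genes it was 5.68% in W81A, 6.93% in deletion, 8.02% in TAF14 and 6.45% in WT.

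Levels per length also differed among the members. Per kb of coding sequence, the mean over the 12 libraries ran from 5.56 CPM per kb for RRP17 to 725.2 CPM per kb for NOP10, around a median of 137.2 for the members and 44.7 for all tested genes. The snoRNP proteins had the highest median of the role groups (449.3 CPM per kb), with NOP10, a protein of the box H/ACA class, and NOP1, the methyltransferase of the box C/D class (667.0), at the top. NOP10 has only 177 bases of coding sequence and group means of 120.2 to 136.8 CPM, so its rank rests on the division by length. The exosome members had the lowest median (95.1). RRP5 (326.7), NOC2 (234.4) and UTP20 (186.6) led the RRP, NOC and UTP families, whereas NOC4 (84.3), UTP30 (90.3) and NOP19 (56.2) were the lowest of the NOC, UTP and NOP families.

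Loss of Taf14, set against its return on a plasmid, was accompanied by lower levels of most members. In deletion against TAF14, 36 of the 56 members fell (64.3%), where 24.8% of all tested genes fell, by edgeR's quasi-likelihood test with adjusted p below 0.05 over all genes. No member rose by that test, where 24.1% of all tested genes rose. The count of rises was also 0 at an unadjusted p under 0.05 and 0 with DESeq2, which called 35 members lower. The median log2 change of the members was -0.26, against 0.00 over all tested genes. Without TAF14 replicate 2 the counts were 41 lower and 1 higher (NOC3, on chromosome XII). Of the 36, 29 were called lower under each of the alternatives tried, which are other scalings, DESeq2, no filter, the 6 libraries of the comparison alone, a replicate term, no chromosome XII and the omission of each library in turn.

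By name, 10 of 18 UTP genes, 12 of 17 NOP genes, 1 of 3 NOC genes and 13 of 18 RRP genes fell. Their median log2 changes were -0.20, -0.37, -0.19 and -0.28 in that order of families. By role, 3 of 6 UtpA, 2 of 2 UtpC, 2 of 5 snoRNP, 10 of 14 other small-subunit, 12 of 16 large-subunit and 5 of 7 exosome members fell, as did both members that serve the 2 subunits. The 4 UtpB members did not pass the test, with log2 changes of -0.04 to -0.19 and edgeR adjusted p between 0.103 and 0.612, and UTP13 and UTP21 of these lie on chromosome XII. Of all tested genes, 24.8% fell in deletion against TAF14, and no difference between families or roles was tested.

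**Figure D3:**
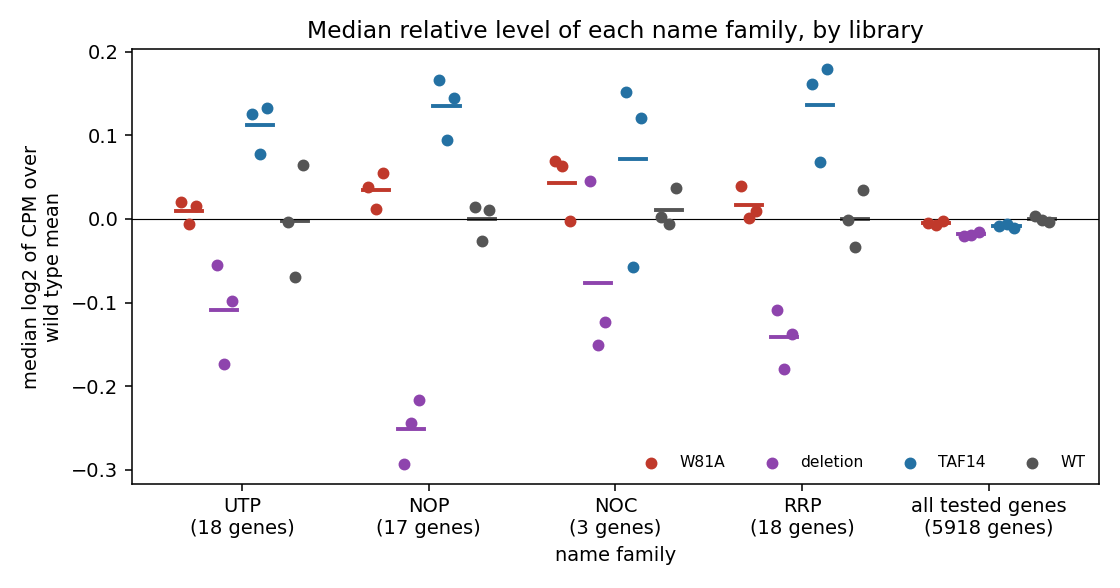
Each point is the median over the genes of a name family, in 1 library, of the log2 ratio of CPM to the mean of the WT libraries (0.5 added to both), and the bar is the mean of 3 libraries. The NOP family has the lowest deletion medians (-0.29 to -0.22), and the medians over all tested genes stay between -0.02 and 0.00.

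Set against WT, the deletion strain showed fewer falls. In deletion against WT, 25 members fell (44.6%), where 24.9% of all tested genes fell, and 2 members rose, where 24.0% of all tested genes rose. The median log2 change was -0.14, against -0.02 over all tested genes. The 25 comprised 7 UTP, 11 NOP, 1 NOC and 6 RRP genes, and the 2 rises were NOC3 and NOP8. The count of falls was 23 with DESeq2 and 16 without deletion replicate 2, and 15 members were called lower under each of the alternatives. Leaving out TAF14 replicate 2 gave 5 rises and 27 falls, and leaving out chromosome XII gave 3 and 21.

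The W81A strain had more of most members than the deletion strain. In W81A against deletion, 28 members rose (50%), where 22.7% of all tested genes rose, and 1 fell (NOP8), where 22.5% of all tested genes fell. The median log2 change was 0.20, against 0.01 over all tested genes. The rises comprised 8 UTP, 11 NOP, 1 NOC and 8 RRP genes, among them 10 of 16 large-subunit and 8 of 14 other small-subunit members. DESeq2 called 25 higher and 1 lower, and 21 of the 28 rises were called under each of the alternatives. Without chromosome XII the counts were 23 and 2, and without TAF14 replicate 2 they were 29 and 3.

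The pocket mutant differed less from the plasmid-borne wild type gene. In W81A against TAF14, 11 members fell (19.6%), where 17.2% of all tested genes fell, and none rose by edgeR's test, where 15.8% of all tested genes rose. The share of members that fell was thus near that of all genes. The count of rises was 0 at an unadjusted p under 0.05 and 0 with DESeq2, and the members' median log2 change was -0.11 against 0.00 over all tested genes. The 11 were UTP5, UTP13, UTP21, NOP8, NOP13, NOP16, NOP58, NOC4, RRP14, RRP42 and RRP43, and NOP8 alone was called under each of the alternatives. The number called lower, newly called members included, was 5, 4 and 8 without W81A replicate 1, 2 and 3, and 5, 14 and 6 without TAF14 replicate 1, 2 and 3.

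The strains with W81A or TAF14 on a plasmid gave fewer calls against WT than the deletion strain did. In W81A against WT, 3 members rose (RRP1, RRP9 and NOP15), where 12.7% of all tested genes rose, and 1 fell (RRP3), where 14.5% of all tested genes fell. The members' median log2 change was 0.02. In TAF14 against WT, 7 members rose (UTP5, UTP9, UTP21, NOP2, NOP15, RRP1 and RRP9), which is 12.5% where 8.11% of all tested genes rose. None fell by edgeR's test, where 8.75% of all tested genes fell, with 1 fall at an unadjusted p under 0.05 and 0 with DESeq2. The members' median log2 change in TAF14 against WT was 0.13, against 0.00 over all tested genes.

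The count for TAF14 against WT moved with the processing. It was 13 with DESeq2, 16 without TAF14 replicate 2, 12 without chromosome XII, 4 with upper-quartile scaling and without WT replicate 3, 3 without WT replicate 1 or 2, and 1 when the 6 libraries were fitted alone. The share of all tested genes called under each alternative is not given. The moves are thus not read as a trait of the members. UTP5 was called higher under each of the alternatives. The W81A, deletion and TAF14 comparisons share their control libraries, so the values below are given side by side and not as independent results.

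**Figure D4:**
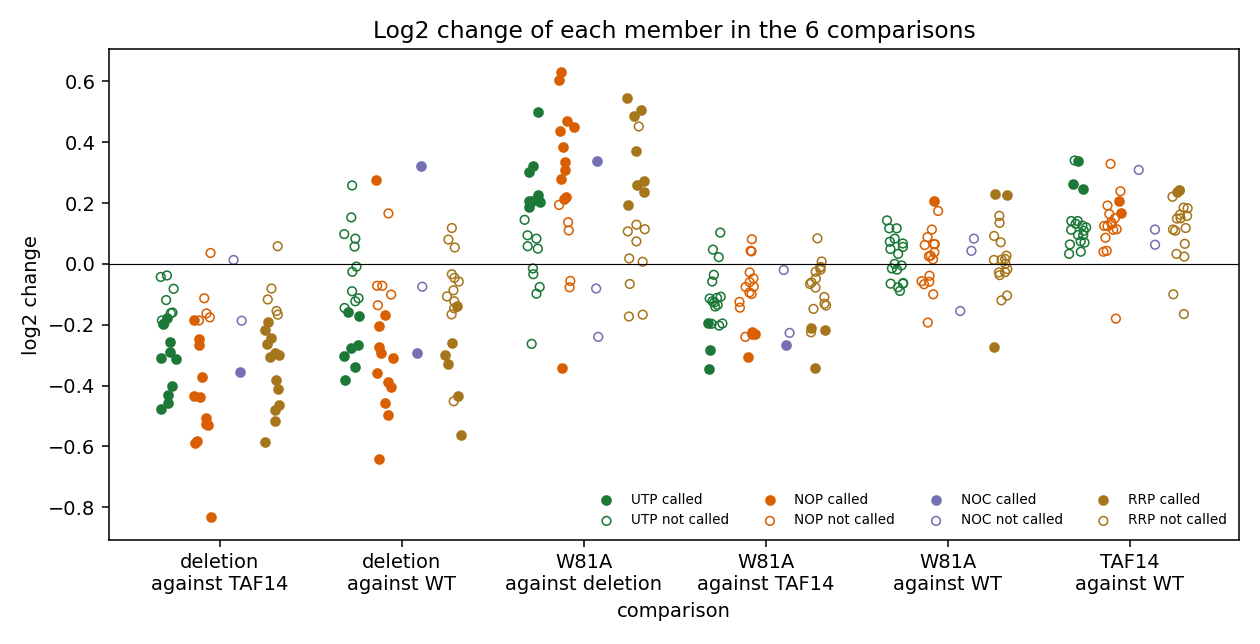
Each point is a member, coloured by name family, and its height is the log2 change in 1 of the 6 comparisons, with filled points for edgeR adjusted p below 0.05. The filled points lie below 0 in deletion against TAF14 and above 0 in W81A against deletion except for NOP8.

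Among the proteins that serve both subunits, RRP5 was the most abundant member in CPM. Rrp5 is a large RNA-binding protein required for processing of the precursors of both subunits, and its gene lies at chrXIII:725934-731123. RRP5 was at 1806.0, 1800.0 and 1876.0 CPM in W81A libraries, 1316.6, 1239.9 and 1301.6 CPM in deletion libraries, 1940.8, 1822.2 and 2025.0 CPM in TAF14 libraries, and 1744.5, 1736.3 and 1738.2 CPM in WT libraries. The 3 deletion libraries lay well below the other 9. RRP5 fell 1.5-fold in deletion against TAF14 (log2 change -0.59 ± 0.06 SE, edgeR adjusted p = 5.7e-06) and 1.35-fold in deletion against WT (-0.44 ± 0.06, 7.76e-05), and rose 1.42-fold in W81A against deletion (0.51 ± 0.06, 2.75e-05). RRP12, a protein of repeated helices needed for export of both subunits, averaged 1015.5 ± 24.3 CPM in W81A, 861.0 ± 54.1 in deletion, 1033.9 ± 24.9 in TAF14 and 952.8 ± 54 in WT (SD, n = 3 each). RRP12 fell in deletion against TAF14 (edgeR adjusted p = 0.00437), and its rise in W81A against deletion (0.00928) was lost without deletion replicate 2.

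Of the large-subunit factors, NOP13 had the widest range. Nop13 is a nucleolar RNA-binding protein found in preribosomal particles, encoded at chrXIV:307401-308612. NOP13 was at 101.9, 109.3 and 111.6 CPM in W81A libraries, 69.3, 71.5 and 71.6 CPM in deletion libraries, 128.4, 116.1 and 134.4 CPM in TAF14 libraries, and 115.8, 113.1 and 102.6 CPM in WT libraries. The deletion libraries were the lowest, the TAF14 libraries the highest, and the W81A and WT libraries overlapped between them. NOP13 fell 1.78-fold in deletion against TAF14 (log2 change -0.83 ± 0.07, edgeR adjusted p = 8.17e-07) and 1.56-fold in deletion against WT (-0.64 ± 0.07, 1.02e-05), and rose 1.52-fold in W81A against deletion (0.60 ± 0.07, 2.11e-05). Its fall in W81A against TAF14 (-0.23 ± 0.07, 0.0195) was lost without W81A replicate 1, TAF14 replicate 1 or TAF14 replicate 3.

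RRP8 encodes the methyltransferase that modifies an adenine of the large-subunit ribosomal RNA, at chrIV:612073-613251. RRP8 was at 191.0, 175.1 and 167.9 CPM in W81A libraries, 130.4, 105.6 and 129.7 CPM in deletion libraries, 180.4, 153.4 and 170.4 CPM in TAF14 libraries, and 183.4, 159.9 and 196.9 CPM in WT libraries. The deletion libraries again lay below the other 9, which overlapped with each other. RRP8 rose 1.46-fold in W81A against deletion (log2 change 0.55 ± 0.10, edgeR adjusted p = 0.000696), fell 1.48-fold in deletion against WT (-0.56 ± 0.10, 0.000475) and fell 1.38-fold in deletion against TAF14 (-0.46 ± 0.10, 0.00176).

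NOP4, NOP7, NOP15, NOP53, NOC2 and RRP15 also fell in deletion against TAF14 and rose in W81A against deletion, each under every one of the alternatives. NOP7, the yeast counterpart of vertebrate pescadillo, averaged 930.0 ± 8.22 CPM in W81A, 680.9 ± 27 in deletion, 979.9 ± 76 in TAF14 and 891.1 ± 23.7 in WT. NOP4, an RNA-binding protein of the early large-subunit particle, averaged 347.6 ± 8.04 CPM in W81A, 251.0 ± 7.9 in deletion, 362.3 ± 11.7 in TAF14 and 332.4 ± 17.5 in WT. Both genes were called lower in deletion against TAF14 and against WT, with edgeR adjusted p of 2.55e-05 and 0.000323 for NOP7 and of 6.55e-06 and 7.16e-05 for NOP4. NOC2, which forms a complex with NOC3 on the large-subunit precursor, was at 539.1, 536.8 and 512.8 CPM in W81A libraries, 428.0, 396.9 and 432.8 CPM in deletion libraries, 561.7, 490.5 and 558.8 CPM in TAF14 libraries, and 514.5, 499.8 and 527.4 CPM in WT libraries.

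RRP1 was the member called in the most comparisons, 5 of 6. Rrp1 is a nucleolar protein of the early large-subunit particle. RRP1 was at 155.7, 147.2 and 152.0 CPM in W81A libraries, 117.8, 116.5 and 117.5 CPM in deletion libraries, 144.9, 152.8 and 161.1 CPM in TAF14 libraries, and 132.9, 126.1 and 128.6 CPM in WT libraries. The W81A and TAF14 libraries overlapped and lay above WT, and the deletion libraries lay below WT. RRP1 rose in W81A against WT (log2 change 0.23 ± 0.05, edgeR adjusted p = 0.00556) and in TAF14 against WT (0.24 ± 0.05, 0.00799), and the call against WT in the TAF14 strain was lost when those 6 libraries were fitted alone. Its fall in deletion against WT (-0.14 ± 0.05, 0.0415) was lost in 14 of 19 alternatives, DESeq2 and the omission of any single WT or deletion library among them.

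NOP15, an RNA-binding protein of the same particle, was at 217.7, 212.2 and 224.2 CPM in W81A libraries, 179.3, 170.2 and 178.9 CPM in deletion libraries, 216.6, 206.5 and 213.0 CPM in TAF14 libraries, and 192.4, 182.0 and 192.4 CPM in WT libraries. The W81A and TAF14 values overlapped above WT, as for RRP1. NOP15 rose in W81A against WT (log2 change 0.21 ± 0.05, edgeR adjusted p = 0.00776). Its rise in TAF14 against WT (0.17 ± 0.05, 0.0376) was lost on omission of TAF14 replicate 1 or 3, any WT library, deletion replicate 3 or W81A replicate 1, with upper-quartile scaling and when those 6 libraries were fitted alone.

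NOP8 was called in the opposite direction to NOP13 and RRP8 in deletion against WT and in W81A against deletion. Nop8 is a nucleolar protein needed for large-subunit production, encoded at chrXV:53098-54552. NOP8 was at 155.4, 140.2 and 144.4 CPM in W81A libraries, 185.3, 182.1 and 190.3 CPM in deletion libraries, 167.2, 207.0 and 169.3 CPM in TAF14 libraries, and 157.8, 146.4 and 156.5 CPM in WT libraries. The deletion and TAF14 libraries overlapped, and both groups lay above the W81A and WT libraries. NOP8 fell 1.27-fold in W81A against deletion (log2 change -0.34 ± 0.08, edgeR adjusted p = 0.00333) and 1.24-fold in W81A against TAF14 (-0.31 ± 0.08, 0.00951), and rose 1.21-fold in deletion against WT (0.28 ± 0.08, 0.0104). NOP8 is on chromosome XV and was the 1 member called lower in W81A against deletion.

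RRP14, a nucleolar assembly factor, had the largest fall in W81A against TAF14 among members whose groups did not overlap. RRP14 was at 103.4, 91.9 and 99.2 CPM in W81A libraries, 126.8, 99.8 and 105.7 CPM in deletion libraries, 145.1, 112.2 and 115.9 CPM in TAF14 libraries, and 108.3, 104.2 and 107.6 CPM in WT libraries. The W81A libraries lay below the TAF14 libraries, and the deletion libraries overlapped both groups. The fall in W81A against TAF14 (log2 change -0.34 ± 0.10, edgeR adjusted p = 0.0225) was lost without TAF14 replicate 1, W81A replicate 2 or W81A replicate 3.

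RRP17, described as an exonuclease of large-subunit maturation, was the scarcest member. RRP17 was at 4.21, 4.02 and 4.29 CPM in W81A libraries, 3.06, 3.38 and 2.71 CPM in deletion libraries, 3.77, 5.45 and 3.79 CPM in TAF14 libraries, and 3.88, 3.7 and 4.95 CPM in WT libraries. The deletion libraries lay below the other 9. The fall in deletion against TAF14 (log2 change -0.52 ± 0.20, edgeR adjusted p = 0.043) was lost in 12 of 19 alternatives, with adjusted p = 0.248 without TAF14 replicate 2 and 0.138 without deletion replicate 3.

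Among the small-subunit factors outside the UTP complexes, NOP6 and NOP9 showed the widest differences. Nop6 is a small-subunit assembly factor with an RNA-binding domain, encoded at chrIV:77289-77966. NOP6 was at 137.8, 139.5 and 147.8 CPM in W81A libraries, 90.9, 89.6 and 93.7 CPM in deletion libraries, 142.5, 143.3 and 126.8 CPM in TAF14 libraries, and 129.0, 131.4 and 116.5 CPM in WT libraries. The deletion libraries lay below the other 9, and W81A and TAF14 overlapped. NOP6 rose 1.55-fold in W81A against deletion (log2 change 0.63 ± 0.07, edgeR adjusted p = 8.43e-06) and fell 1.5-fold in deletion against TAF14 (-0.59 ± 0.07, 1.06e-05) and 1.37-fold in deletion against WT (-0.46 ± 0.07, 0.000101).

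NOP9 encodes a protein with Pumilio repeats that binds the small-subunit precursor RNA. NOP9 was at 213.5, 204.2 and 212.6 CPM in W81A libraries, 158.9, 149.9 and 156.3 CPM in deletion libraries, 237.2, 214.9 and 244.4 CPM in TAF14 libraries, and 219.9, 210.1 and 225.9 CPM in WT libraries. The deletion libraries lay below the other 9, which overlapped in part. NOP9 fell in deletion against WT (log2 change -0.50 ± 0.06, edgeR adjusted p = 2.12e-05) and in deletion against TAF14 (-0.58 ± 0.06, 4.48e-06).

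**Figure D5:**
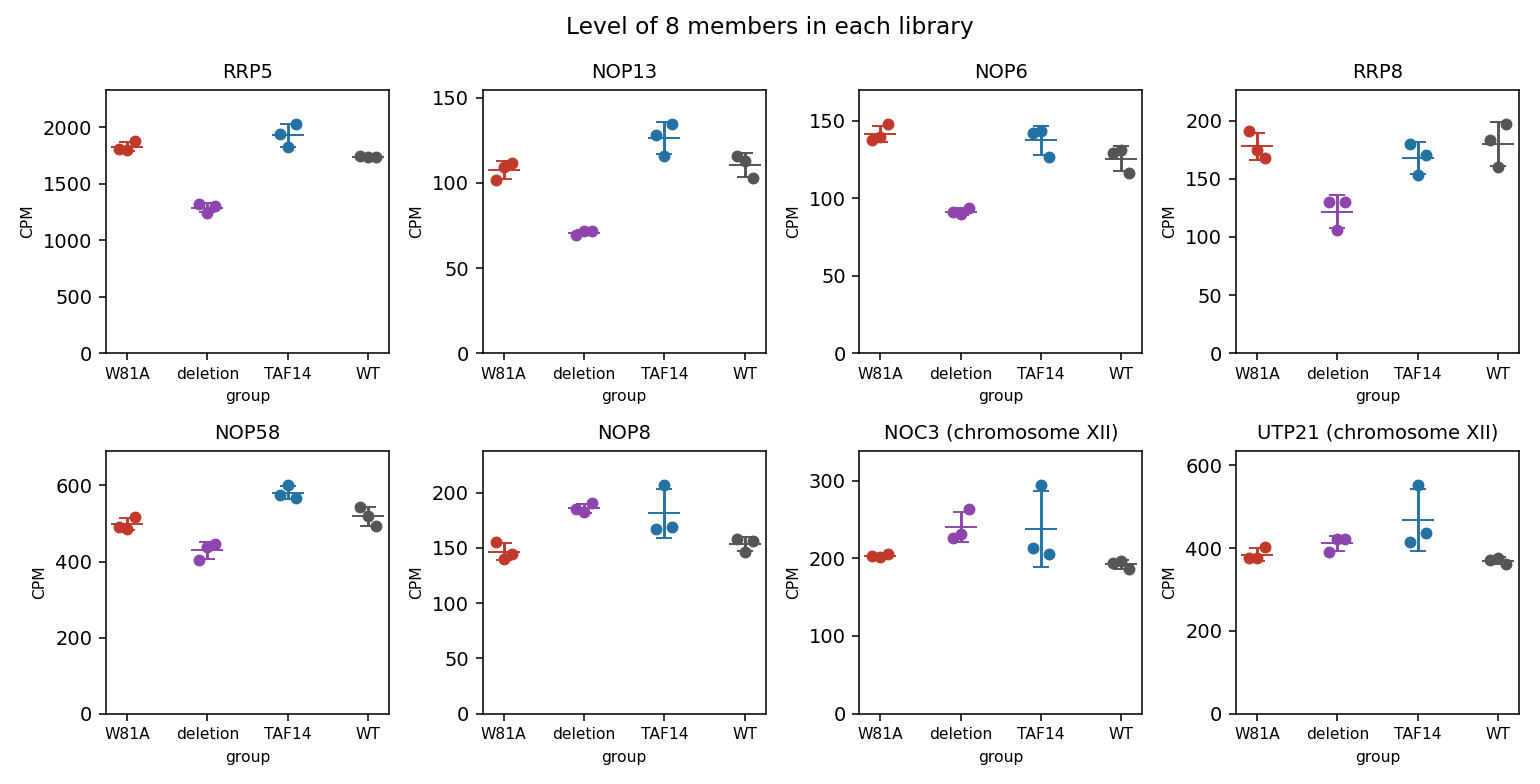
Points are the 3 libraries of each group, bars the mean and SD in CPM on axes from 0, and groups run W81A, deletion, TAF14, WT. The deletion libraries are lowest in the first 5 panels, and deletion and TAF14 are both raised for NOP8. TAF14 replicate 2 is the highest library for NOC3 and UTP21, and for NOC3 the deletion libraries are also raised.

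UTP20, a very large protein of the early small-subunit particle, was at 1414.9, 1411.7 and 1460.2 CPM in W81A libraries, 1205.8, 1072.4 and 1147.6 CPM in deletion libraries, 1514.2, 1616.0 and 1578.0 CPM in TAF14 libraries, and 1469.1, 1375.6 and 1487.6 CPM in WT libraries. UTP20 fell in deletion against TAF14 (log2 change -0.46 ± 0.06, edgeR adjusted p = 6.44e-05) and against WT (-0.34 ± 0.06, 0.000754), with no overlap of libraries. UTP23, a protein with a PIN-type fold, averaged 98 ± 4.23 CPM in W81A, 69.2 ± 5.86 in deletion, 96.5 ± 9.6 in TAF14 and 90.3 ± 5.23 in WT. Its rise in W81A against deletion (edgeR adjusted p = 0.0004) was called under each of the alternatives.

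UTP30, related to a ribosomal protein and low among the UTP genes, was at 78.5, 73 and 68.6 CPM in W81A libraries, 65.4, 60.1 and 62.6 CPM in deletion libraries, 93, 75.4 and 85.3 CPM in TAF14 libraries, and 74.1, 75.9 and 82.2 CPM in WT libraries. UTP30 fell in deletion against TAF14 (log2 change -0.43 ± 0.08, edgeR adjusted p = 0.000765). Its rise in W81A against deletion (0.23 ± 0.08, 0.0376) was lost with DESeq2 (0.0561), without chromosome XII and without W81A replicate 1 or 2 or deletion replicate 2 or 3.

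RRP3, a DEAD-box RNA helicase of small-subunit processing, was the 1 member that fell in W81A against WT. RRP3 was at 119.7, 109.2 and 114.2 CPM in W81A libraries, 141.6, 119.6 and 124.3 CPM in deletion libraries, 119.7, 129.3 and 121.1 CPM in TAF14 libraries, and 135.3, 129.8 and 150.0 CPM in WT libraries. The fall (log2 change -0.27 ± 0.07, edgeR adjusted p = 0.0155) was lost without WT replicate 3 (0.0663) or W81A replicate 2 (0.0662). NOP19 was the scarcest of these small-subunit factors, and NOC4 had the lowest level per kb of the 3 NOC genes. NOP19 was at 37.3, 34.4 and 30.8 CPM in W81A libraries, 29.3, 30.9 and 29.4 CPM in deletion libraries, 33.8, 31.7 and 31.4 CPM in TAF14 libraries, and 33.4, 40.3 and 36.2 CPM in WT libraries. Its fall in deletion against WT (-0.29 ± 0.09, 0.0151) was lost without WT replicate 2. NOC4, the partner of Nop14 in the small-subunit particle, was at 128.9, 124.4 and 130.0 CPM in W81A libraries, 146.8, 128.1 and 130.6 CPM in deletion libraries, 164.7, 136.8 and 160.5 CPM in TAF14 libraries, and 136.0, 141.8 and 149.1 CPM in WT libraries. Its fall in W81A against TAF14 (-0.27 ± 0.08, edgeR adjusted p = 0.016) was lost without TAF14 replicate 1, TAF14 replicate 3 or W81A replicate 2.

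UtpA is the complex that binds the start of the precursor RNA first. UTP10, UTP5 and UTP4 fell in deletion against TAF14, with log2 changes of -0.31 ± 0.06, -0.29 ± 0.05 and -0.18 ± 0.05 and edgeR adjusted p of 0.00109, 0.000623 and 0.00973. The call of UTP4 was lost without deletion replicate 2 and when the 6 libraries of that comparison were fitted alone. UTP8, UTP9 and UTP15 had log2 changes of -0.20, -0.16 and -0.04 with edgeR adjusted p of 0.0543, 0.0817 and 0.519. UTP5 was at 254.2, 268.7 and 264.3 CPM in W81A libraries, 251.8, 239.9 and 245.9 CPM in deletion libraries, 311.3, 293.8 and 296.3 CPM in TAF14 libraries, and 256.2, 258.4 and 236.5 CPM in WT libraries. The TAF14 libraries stood above the other 9. UTP5 rose in TAF14 against WT (0.26 ± 0.05, edgeR adjusted p = 0.00593).

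UTP9 was at 256.4, 255.3 and 245.3 CPM in W81A libraries, 279.4, 241.8 and 254.2 CPM in deletion libraries, 287.7, 269.0 and 310.9 CPM in TAF14 libraries, and 238.2, 230.5 and 263.2 CPM in WT libraries. Its rise in TAF14 against WT (log2 change 0.25 ± 0.07, edgeR adjusted p = 0.036) was lost in 9 of 19 alternatives, among them the omission of WT replicate 1 or 2, TAF14 replicate 1 or 3, W81A replicate 1 or 2, and deletion replicate 3. The UtpC members are UTP22 and RRP7. UTP22 fell in deletion against TAF14 (-0.40 ± 0.08, edgeR adjusted p = 0.000836), and the call of RRP7 (-0.19 ± 0.07, 0.0438) was lost in 10 of 19 alternatives, omission of deletion replicate 2 or 3, TAF14 replicate 1 or 3, WT replicate 1 or any W81A library among them.

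Of the 5 snoRNP members, NOP1 and NOP58 fell in deletion against TAF14 (40%), where 24.8% of all tested genes fell. NOP1 was at 676.9, 628.8 and 745.0 CPM in W81A libraries, 542.6, 535.7 and 494.3 CPM in deletion libraries, 754.1, 736.0 and 746.6 CPM in TAF14 libraries, and 667.8, 670.6 and 677.1 CPM in WT libraries. NOP58, a core scaffold of box C/D snoRNPs encoded at chrXV:896825-898360, was at 491.6, 486.2 and 516.0 CPM in W81A libraries, 403.2, 438.2 and 446.5 CPM in deletion libraries, 574.6, 601.6 and 567.8 CPM in TAF14 libraries, and 543.7, 520.0 and 492.6 CPM in WT libraries. For both genes the deletion libraries were the lowest, and for NOP58 the TAF14 libraries were above all others. In deletion against TAF14, NOP1 fell 1.42-fold (log2 change -0.51 ± 0.07, edgeR adjusted p = 4.07e-05) and NOP58 fell 1.35-fold (-0.44 ± 0.06, 6.89e-05). NOP58 also fell in W81A against TAF14 (-0.22 ± 0.06, 0.0131), a call lost without W81A replicate 2 (0.0514).

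NOP56, the paralogue of NOP58 in the same particle and a chromosome XII gene, was at 630.6, 638.8 and 686.3 CPM in W81A libraries, 675.1, 707.9 and 680.7 CPM in deletion libraries, 612.9, 1019.1 and 677.9 CPM in TAF14 libraries, and 624.1, 606.2 and 609.3 CPM in WT libraries. TAF14 replicate 2 lay far above the other 11 libraries. NOP56 did not pass the test with all libraries, with edgeR adjusted p between 0.123 and 0.676 over the 6 comparisons. It rose in deletion against WT without TAF14 replicate 2 (log2 change 0.17, edgeR adjusted p = 0.0224) and with those 6 libraries fitted alone (0.17, 0.0198). That rise is less than the shift of the chromosome's median in the deletion libraries. Without TAF14 replicate 1, NOP56 rose in TAF14 against WT (0.46, edgeR adjusted p = 0.03) and fell in W81A against TAF14 (-0.37, 0.0403). NOP10 was at 126.4, 128.5 and 134.7 CPM in W81A libraries, 103.1, 127.4 and 130.2 CPM in deletion libraries, 143.9, 141.6 and 125.0 CPM in TAF14 libraries, and 127.7, 132.4 and 119.4 CPM in WT libraries, with overlap between all groups. RRP9, a protein of the U3 snoRNP, was at 160.9, 163.3 and 153.6 CPM in W81A libraries, 144.3, 147.3 and 152.0 CPM in deletion libraries, 175.2, 150.7 and 155.2 CPM in TAF14 libraries, and 136.5, 137.9 and 134.5 CPM in WT libraries. The WT libraries were the lowest. RRP9 rose in W81A against WT (0.22 ± 0.06, edgeR adjusted p = 0.014), a call lost without W81A replicate 2 (0.0542). It also rose in TAF14 against WT (0.23 ± 0.06, 0.0194). That call was lost without TAF14 replicate 1 or WT replicate 1 or 3, and when those 6 libraries were fitted alone (0.0871).

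The chromosome XII members other than NOP56 carried the same mark of TAF14 replicate 2. NOC3, a large-subunit factor also known from DNA replication and encoded at chrXII:154343-156334, was at 203.2, 202.0 and 205.3 CPM in W81A libraries, 226.7, 230.9 and 263.0 CPM in deletion libraries, 213.5, 294.5 and 205.7 CPM in TAF14 libraries, and 194.1, 196.8 and 185.6 CPM in WT libraries. NOC3 rose in deletion against WT (log2 change 0.32 ± 0.11, edgeR adjusted p = 0.0278), which is less than the shift of the chromosome's median in those libraries. The call was lost without any 1 WT library or deletion replicate 3. UTP21, a protein of UtpB encoded at chrXII:934414-937233, was at 374.9, 375.0 and 402.3 CPM in W81A libraries, 390.4, 421.3 and 421.1 CPM in deletion libraries, 414.6, 552.5 and 435.3 CPM in TAF14 libraries, and 371.3, 376.6 and 360.9 CPM in WT libraries. Its rise in TAF14 against WT (0.34 ± 0.09, 0.023) was called without TAF14 replicate 2 and lost without any 1 WT library. The fall of UTP21 in W81A against TAF14 (-0.28 ± 0.09, 0.0279) was lost without TAF14 replicate 2 (-0.15, 0.0678) and without W81A replicate 1 or 2. Both calls of UTP21 were also lost when the 6 libraries of the comparison were fitted alone (edgeR adjusted p = 0.0953 and 0.0863). UTP13 averaged 306.5 ± 14.5 CPM in W81A, 368.0 ± 7.44 in deletion, 389.2 ± 93.1 in TAF14 and 307.7 ± 22.1 in WT, and its fall in W81A against TAF14 (edgeR adjusted p = 0.0497) was lost in 15 of 18 alternatives, the omission of every library but TAF14 replicate 1 included.

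Of the 7 exosome members, 5 fell in deletion against TAF14 (71.4%), where 24.8% of all tested genes fell. The 5 were RRP6, the nuclear exonuclease of the complex, the cap protein RRP40 and the ring proteins RRP42, RRP43 and RRP45, with log2 changes between -0.22 and -0.41. RRP43 averaged 94.6 ± 4.16 CPM in W81A, 82.6 ± 1.55 in deletion, 110.0 ± 10.7 in TAF14 and 101.6 ± 1.08 in WT. It fell in deletion against TAF14 (-0.41 ± 0.07, edgeR adjusted p = 0.000295) and against WT (-0.30 ± 0.07, 0.00304). RRP42 lost its call in deletion against TAF14 without TAF14 replicate 1 and when the 6 libraries of that comparison were fitted alone. RRP4 and RRP46 passed the test in no comparison, as did NOP10, NOP56, UTP8, UTP15, UTP18 and UTP25. The summed level of the 7 was 753.5, 751.8 and 750.0 CPM in W81A libraries, 681.2, 682.1 and 685.1 CPM in deletion libraries, 832.5, 772.6 and 852.1 CPM in TAF14 libraries, and 756.9, 739.1 and 757.1 CPM in WT libraries.

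Members with both motifs and the rest had medians close to each other, and their difference was not tested. In deletion against TAF14, where 24.8% of all tested genes fell, the 35 members with both motifs had a median log2 change of -0.26. Of these 35, 22 fell (62.9%). The 21 members with 1 motif or neither had a median of -0.29, with 14 falls (66.7%). In W81A against deletion, the same sets had medians of 0.19, with 17 rises (48.6%), and 0.20, with 11 rises (52.4%). Of all tested genes, 22.7% rose in W81A against deletion. The 218 tested genes outside the members and the listed pathway genes that held both motifs had a median of -0.13 in deletion against TAF14. Of these, 89 fell (40.8%, against 24.8% of all tested genes) and 30 rose (13.8%, against 24.1%).

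A list of 101 other genes of the pathway, which hold none of the 4 names, is given for comparison. In deletion against TAF14, 69 fell (68.3%, against 24.8% of all tested genes) and 1 rose (0.99%, against 24.1%). In W81A against deletion, 57 rose (56.4%, against 22.7%) and 10 fell (9.9%, against 22.5%). In deletion against WT, 49 fell (48.5%, against 24.9%) and 12 rose (11.9%, against 24.0%). In W81A against TAF14, 22 fell (21.8%, near the 17.2% of all tested genes) and 1 rose (0.99%, against 15.8%). In W81A against WT, 16 rose (15.8%, near the 12.7% of all tested genes) and 6 fell (5.94%, against 14.5%). In TAF14 against WT, 33 rose (32.7%, against 8.11%). None fell by edgeR's test in TAF14 against WT, where 8.75% of all tested genes fell. There was 1 such fall at an unadjusted p under 0.05 and 0 with DESeq2, which called 46 higher. NSR1, the yeast nucleolin, had the widest difference, at 620.1 ± 19.4 CPM in W81A, 391.2 ± 6.81 in deletion, 800.6 ± 42.2 in TAF14 and 634.1 ± 14.5 in WT (deletion against TAF14 log2 change -1.03 ± 0.06, edgeR adjusted p = 2.02e-08). The large-subunit factors SDA1 (-0.59 ± 0.06, 7.81e-06) and NIP7 (-0.57 ± 0.07, 2.96e-05) and the box H/ACA protein GAR1 (-0.56 ± 0.09, 0.000231) also fell in that comparison. SLX9, a small-subunit export factor, was the 1 that rose (0.22 ± 0.07, 0.0194). The call was lost without deletion replicate 1 or TAF14 replicate 1, and when the 6 libraries of that comparison were fitted alone.

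Among the pathway genes with the largest changes, BUD20, a factor of large-subunit export, FCF2, of the small-subunit particle, and CBF5 lay on chromosome XII. BUD20 averaged 104.8 ± 4.91 CPM in W81A, 148.7 ± 4.04 in deletion, 151.5 ± 33.4 in TAF14 and 103.2 ± 8.97 in WT, and FCF2 averaged 100.4 ± 2.21 CPM in W81A, 129.8 ± 7.16 in deletion, 122.9 ± 22.6 in TAF14 and 87.2 ± 5.93 in WT. Both rose in deletion against WT, by 0.53 ± 0.12 and 0.57 ± 0.10 on the log2 scale (edgeR adjusted p = 0.00277 and 0.000607). CBF5, the pseudouridine synthase of box H/ACA snoRNPs, averaged 570.6 ± 33.1 CPM in W81A and 831.4 ± 176.8 in TAF14 and fell in that comparison (-0.54 ± 0.12, 0.00339). Away from chromosome XII, SAS10 and MAK16 fell in W81A against WT (-0.34 ± 0.06 and -0.23 ± 0.05, edgeR adjusted p = 0.00121 and 0.00575), SQT1 and SSF1 rose there (0.32 ± 0.08 and 0.29 ± 0.06, 0.0123 and 0.00206), and IMP4 rose in W81A against TAF14 (0.14 ± 0.05, 0.04), a call lost in 13 of 19 alternatives, among them DESeq2 and the omission of any 1 W81A library, TAF14 replicate 1 or 2, WT replicate 1 or deletion replicate 2 or 3.

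Members were rarely next to each other. Of the 56, 5 (8.93%) lay beside another gene of the member or pathway lists, against 5.01% of 5848 genes of no list. RRP15 and NOC4 converge on chromosome XVI with 689 bases between them, and RRP3 and SSF1 diverge on chromosome VIII with 297 bases between their coding starts. In W81A against WT, RRP3 fell and SSF1 rose, as given above. UTP9 and RIX1 on chromosome VIII, and RSA3 and UTP13 on chromosome XII, run in the same direction.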

How the data were processed

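The authors deposited a table of raw read counts by gene for 12 libraries, and all 12 were used. Per the labels' protocols, total RNA was extracted with phenol and chloroform, DNase treated, depleted with Ribo-Zero Gold and made into stranded TruSeq libraries. The submitters' processing notes name sacCer3, TopHat2 2.0.14, SAMtools 0.1.19, HTSeq 0.6.1p1 and DESeq2 1.8.1. The strand setting and annotation of the counting are not given in the sources used here.

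Of 6692 entries, 6008 matched the R64 annotation by locus tag, and the 684 others held 0.952% of counts and stayed in the fit. Near copies were searched with blastn 2.17.0+. Tests were run with edgeR 4.0.16 in R 4.3.3 (quasi-likelihood F-test, TMM scaling, default filter on low counts) in 1 model of 4 groups on all 12 libraries, with 8 residual degrees of freedom and a biological coefficient of variation of 8.59%. The filter left 5918 genes and removed 774. Adjusted p-values are Benjamini-Hochberg over all 5918 genes of a comparison, and below 0.05 a gene is called higher (rose) or lower (fell). The standard error (SE) of a log2 change was derived from the F statistic. CPM are counts per 1e6 of the TMM-scaled library size, given as mean ± SD over n = 3 libraries, and 0.5 was added only for ratios to WT. The procedure was tested on simulated data.

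Members and lists were chosen with earlier results of these data known. Per-library values were given for TAF14, for up to 3 largest rises and falls of each comparison among called members whose groups did not overlap, for the highest and lowest level per kb in each name family, and for NOP1, NOP56 and NOP58. Of the other pathway genes, up to 2 rises and 2 falls of each comparison were named by the same rule. Alternatives were DESeq2 1.42.0, relative log expression (RLE) and upper-quartile scaling, no filter, each comparison's 6 libraries alone, a replicate term, no chromosome XII and each library left out. The order of group means without TAF14 replicate 2 was added after seeing the data.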

Additional observations from a re-analysis of the deposited data

How the results depend on the processing

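Scaling moved the median of all genes by at most 0.02 on the log2 scale, and no called direction of a member named by the rule reversed. Fitting the 6 libraries of a comparison alone gave 7 falls in W81A against TAF14 (11 in the full fit), 3 falls in W81A against deletion (1), 5 rises in deletion against WT (2), 3 falls in W81A against WT (1) and 1 rise in TAF14 against WT (7). Leaving out chromosome XII gave 2 falls in W81A against deletion and 12 rises in TAF14 against WT, where upper-quartile scaling gave 4 rises and DESeq2 gave 13. The cause of these moves was not tested, and shares of all tested genes under the alternatives are not given. The counts in this section are therefore not read as a trait of the members. With 1 library left out at a time, the falls numbered 4 to 14 in W81A against TAF14, 1 to 3 in W81A against deletion, 16 to 27 in deletion against WT and 0 to 2 in W81A against WT. The rises numbered 0 to 1 in deletion against TAF14, 1 to 5 in deletion against WT and 3 to 16 in TAF14 against WT. The members' median log2 change kept its sign under each alternative in all 6 comparisons, and lay between -0.29 and -0.23 in deletion against TAF14 with 1 library left out. Same-numbered libraries were not clearly more alike than others. The correlation of deviations between same-numbered libraries ran from -0.22 to 0.31 over 18 pairs, and 3 were over 0.1. Between libraries of different numbers it ran from -0.38 to 0.43 over 36 pairs, and 8 were over 0.1. A pairing in another order was not tested. With the replicate block, W81A against WT had 2 falls, and the other counts of calls stayed within 1.5 times. The lowest count of a member in a library was 28, for RRP17.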
